A study of Rattus norvegicus with 3 samples.

Results

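The sarcoplasmic reticulum calcium handling genes described here are 10 genes that store, release, recapture or extrude calcium in the heart muscle cell: Ryr2, Trdn, Asph, Casq2, Hrc, Atp2a2, Pln, Jph2, Slc8a1 and Dhrs7c. They were taken by name, and each was found once among the 22250 genes of the count files. Their levels were read in cardiomyocyte nuclei of 3 libraries from rat hearts, with the other heart cell types as background. All 10 passed the minimum of 50 UMIs over the 3 libraries. A UMI (unique molecular identifier) marks 1 captured RNA molecule.

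The heart apex was taken from rats of the genotypes WT, BMD and DMD aged 12 months, and its nuclei were isolated, sorted by flow cytometry and sequenced. WT rats carry an intact Dmd gene. BMD rats, a model of Becker muscular dystrophy on the Sprague Dawley background, carry an in-frame CRISPR/Cas9 deletion within Dmd that leaves a shortened dystrophin, and DMD rats, a model of Duchenne muscular dystrophy, carry a deletion in Dmd that removes the protein from the muscle. The edited gene is altered in every cell, not in the heart alone, and no group received a treatment. There was 1 library per genotype, the number of animals behind it was not given in the sources used here, and no comparison between genotypes could be tested. Intervals below are at 95% and cover counting error only, not the spread between nuclei or between animals.

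In each heartbeat, calcium entering the cardiomyocyte through surface channels opens the ryanodine receptor of the sarcoplasmic reticulum, and the released calcium drives contraction. Relaxation follows as the SERCA pump returns calcium to the reticulum, under the brake of phospholamban, and as the sodium-calcium exchanger carries the rest out of the cell. Altered handling of calcium is a known feature of failing and dystrophin-deficient hearts.

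The libraries held between 19215994 and 21609238 UMIs, and 24664 barcodes were taken as nuclei. Of these, 4627 formed a cluster named cardiomyocyte-like, since each of the 11 listed cardiomyocyte markers found in the files reached 2 times the level it had in the other nuclei. The nuclei numbered 2030 (WT), 1533 (BMD) and 1064 (DMD), with medians of 2760.5, 3769 and 3257 UMIs. Nucleus barcodes shared by 2 libraries numbered 12 to 20 per pair. The targeted gene Dmd had 16480 CPM in WT against 20541 CPM (BMD) and 19484 CPM (DMD) in these nuclei. CPM is the count of a gene scaled to a total of 1000000 UMIs over the summed nuclei. The deletions remove a small part of this large gene, so its count does not check the labels. The summed fibroblast markers, all 9 of them detected, were at 206 CPM in WT against 159 CPM (BMD) and 380 CPM (DMD). The 9 endothelial markers were at 113, 178 and 196 CPM, and the 10 pericyte or smooth muscle markers at 1016, 1022 and 708 CPM. Of the other cell type markers, Kcna1, Cd79a, Plin1, Lep, Krt19 and Lrrn4 were at 0 in all 3 libraries. Mitochondrial UMIs made up a median of 0.139% (WT), 0.249% (BMD) and 0.327% (DMD) of a nucleus, and a doublet caller marked 1.18%, 1.17% and 4.32% of the cardiomyocyte-like nuclei. The part of these differences in the results below was not tested.

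Against WT, the 10 genes did not share 1 direction. Dhrs7c was at 0.251 times its WT level in BMD and 0.266 times in DMD, Jph2 was at 1.46 and 1.64 times, and the other 8 genes lay within 1.5-fold of WT. In BMD, 0 of 10 genes were at least 1.5-fold higher, where 9.17% of all 10134 genes with at least 50 UMIs were, and 1 of 10, Dhrs7c, was at least 1.5-fold lower, against 9.33% of all genes. In DMD, 1 of 10 genes, Jph2, was at least 1.5-fold higher, against 11.1% of all genes, and 1 of 10, again Dhrs7c, was at least 1.5-fold lower, against 10.7%. These shares are near the background. The median log2 ratio of the 10 genes was 0.19 in BMD and 0.15 in DMD, beside -0.05 and -0.03 over all 10134 genes. In each comparison 7 of the 10 genes were above 0, where 44.4% (BMD) and 46.8% (DMD) of all genes were. The 2 comparisons share the WT library, so their likeness is no separate evidence. WT counts also came from an aggregate file whose header names another Cell Ranger version than those of BMD and DMD. That header does not show which version counted the WT reads. Counting that differed between WT and the mutants cannot be told apart from genotype.

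**Figure D1:**
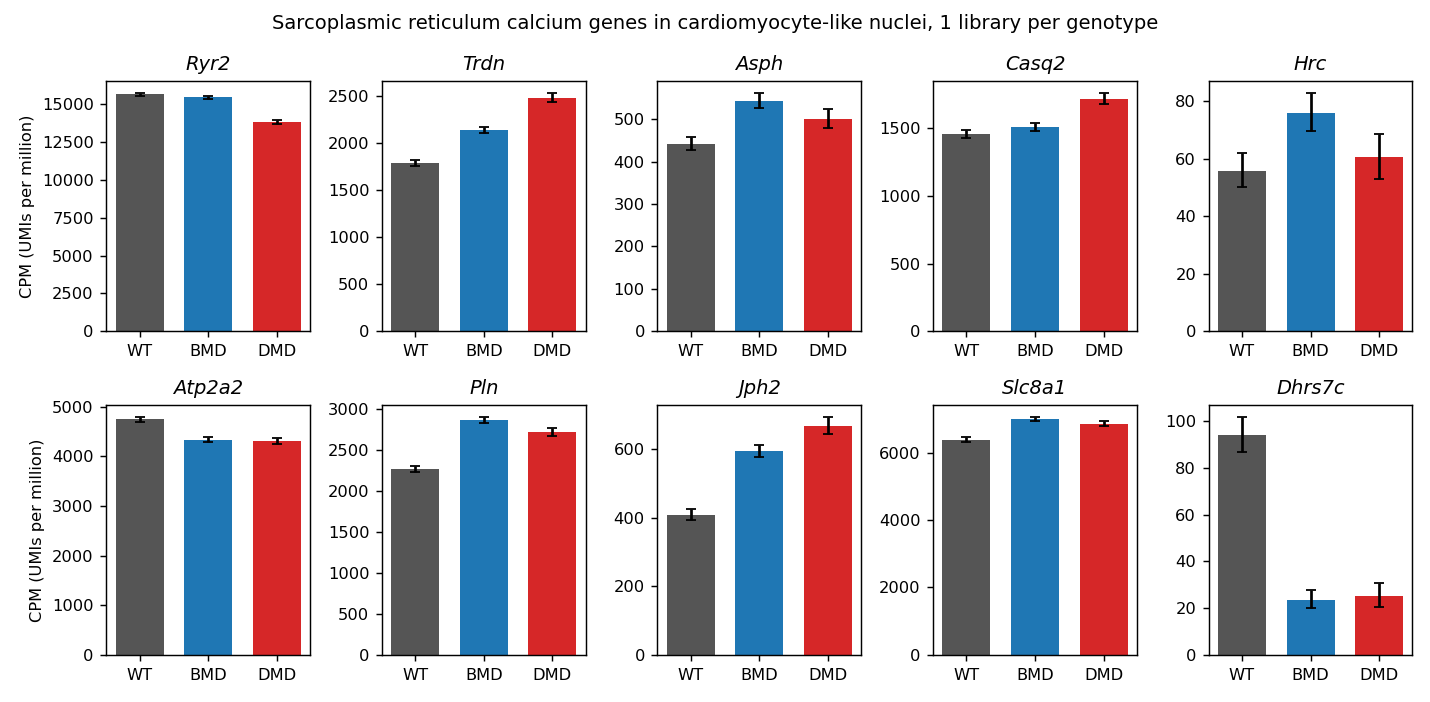
Level of each gene in cardiomyocyte-like nuclei, as CPM on a linear axis from 0, with 1 bar per library and the exact 95% Poisson interval as error bar. Each panel has its own axis, and the heights of different genes are not to be compared, since longer RNAs and RNAs primed at more sites give more UMIs. Dhrs7c stands at 94.1 CPM in WT against 23.7 (BMD) and 25.1 (DMD), and Jph2 at 408 CPM in WT against 594 (BMD) and 668 (DMD).

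The release channel and its partners came first in role. Ryr2 (ENSRNOG00000017060), the ryanodine receptor that lets calcium out of the store, had 15638 CPM in WT against 15461 CPM (BMD) and 13818 CPM (DMD). Over all cardiomyocyte-like nuclei BMD was close to WT and DMD was the lowest. The log2 ratio of BMD to WT was -0.02 (-0.03 to -0.004) and that of DMD -0.18 (-0.19 to -0.16). The sign in BMD depended on the scaling, at 0.03 with TMM factors and 0.01 with median-of-ratios factors, so no direction is given for Ryr2 in BMD. At a finer clustering, DMD was within counting error of WT in the cluster with most of the mutant nuclei, at -0.02 (-0.05 to 0.006).

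Trdn (ENSRNOG00000012609) encodes triadin, which anchors calsequestrin to the release channel. It had 1792 CPM in WT against 2139 CPM (BMD) and 2485 CPM (DMD). The levels stood apart in that order, with log2 ratios over WT of 0.26 for BMD (0.22 to 0.29) and 0.47 for DMD (0.43 to 0.51). Asph (ENSRNOG00000007445) encodes aspartyl beta-hydroxylase and, from the same gene, the small membrane protein junctin of the release complex. It had 443 CPM in WT against 544 CPM (BMD) and 501 CPM (DMD). Both mutant libraries were above WT, with log2 ratios of 0.30 for BMD (0.23 to 0.37) and 0.18 for DMD (0.09 to 0.26). Counts per gene do not separate the junctin transcripts from the longer ones of Asph.

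The genes of the store's lumen followed a similar range of differences. Casq2 (ENSRNOG00000016243), which encodes cardiac calsequestrin, the main calcium buffer of the lumen, had 1456 CPM in WT against 1511 CPM (BMD) and 1718 CPM (DMD). Over all cardiomyocyte-like nuclei WT and BMD were close and DMD was higher. The log2 ratios over WT were 0.05 for BMD (0.01 to 0.09) and 0.24 for DMD (0.19 to 0.28). At a finer clustering of these nuclei the BMD ratio was larger, at 0.18 (0.11 to 0.26) in cluster 1 and 0.24 (0.16 to 0.33) in cluster 2. Hrc (ENSRNOG00000020719), the histidine-rich calcium-binding protein of the lumen, had 55.8 CPM in WT against 75.9 CPM (BMD) and 60.5 CPM (DMD), from 354, 507 and 234 UMIs. The log2 ratio of BMD to WT was 0.44 (0.25 to 0.64). In DMD it was 0.12 with an interval of -0.13 to 0.36, so a difference between DMD and WT was not detectable at this depth.

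Over all cardiomyocyte-like nuclei, the pump and its brake lay on opposite sides of WT. Atp2a2 (ENSRNOG00000001285), which encodes the SERCA2 pump, had 4742 CPM in WT against 4329 CPM (BMD) and 4303 CPM (DMD). WT was the highest and the mutant libraries were alike, with log2 ratios over WT of -0.13 for BMD (-0.15 to -0.11) and -0.14 for DMD (-0.17 to -0.11). Pln (ENSRNOG00000000413), which encodes phospholamban, the inhibitor of the pump, had 2267 CPM in WT against 2862 CPM (BMD) and 2712 CPM (DMD). WT was the lowest here, with log2 ratios of 0.34 for BMD (0.30 to 0.37) and 0.26 for DMD (0.22 to 0.30).

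The direction of Atp2a2 did not hold at a finer clustering of these nuclei. In the cluster with most of the mutant nuclei its log2 ratio was 0.14 in BMD and 0.11 in DMD, on the same side of WT as Pln.

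The promoters of this pair, the 250 bases before the RefSeq start of each gene, are shown because the protein of the one restrains that of the other. They are on the plus strand of build GRCr8, at chr12:39733269-39733518 for Atp2a2 and chr20:33172244-33172493 for Pln. Capitals mark matches on either strand to the E-box CANNTG and to GATA.
Atp2a2: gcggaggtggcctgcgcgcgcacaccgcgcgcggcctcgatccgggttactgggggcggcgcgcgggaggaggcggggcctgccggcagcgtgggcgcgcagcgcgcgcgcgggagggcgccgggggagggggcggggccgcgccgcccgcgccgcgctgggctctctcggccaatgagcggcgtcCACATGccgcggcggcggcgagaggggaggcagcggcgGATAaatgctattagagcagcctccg
Pln: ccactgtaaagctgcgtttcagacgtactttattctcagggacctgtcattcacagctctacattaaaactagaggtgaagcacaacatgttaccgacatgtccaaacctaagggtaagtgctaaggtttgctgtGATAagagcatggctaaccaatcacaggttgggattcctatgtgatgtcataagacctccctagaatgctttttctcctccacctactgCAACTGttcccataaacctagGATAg
The Atp2a2 window is 80% G or C and the Pln window 44%. In Atp2a2 the E-box lies 64 to 59 bases before the start and the GATA match 26 to 23 bases before it. In Pln the E-box lies 26 to 21 bases before the start, with GATA matches at 115 to 112 and 5 to 2 bases. RefSeq windows were found for 8 of the 10 genes, all but Asph and Dhrs7c. Of the 8 windows, 5 held an E-box, against 65.5% of 33469 gene windows of the same length, and 5 held GATA, against 55.9%. The TATA letters TATAAA, in 12.9% of all windows, and the M-CAT letters CATTCC, in 12.1%, were in 0 of 8. A MEF2 match was in 1 of 8, Casq2, against 1.68% of all windows, and a CArG match was in 0 of 8, against 1.5%. No matches overlapped in the windows of these 8 genes. These matches are letters in a window and were not tied to the levels above.

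Jph2 (ENSRNOG00000008170) encodes junctophilin 2, which holds the reticulum against the T-tubule at the dyad, where calcium entry meets calcium release. It had 408 CPM in WT against 594 CPM (BMD) and 668 CPM (DMD), from 2590, 3969 and 2586 UMIs. The 3 libraries stood apart, with WT the lowest and DMD the highest. The log2 ratio of BMD to WT was 0.54 (0.47 to 0.61), which is 1.46-fold, and that of DMD 0.71 (0.63 to 0.79), which is 1.64-fold. In BMD the ratio crossed 1.5-fold with TMM factors, at a log2 ratio of 0.59. Among all 10134 genes, 89.8% had a lower ratio than Jph2 in BMD and 91.1% in DMD. The promoter window of this gene, the member at the upper end of both comparisons, lies on the minus strand at chr3:172477922-172478171 of GRCr8. It is 57.2% G or C, and 0 of the 6 motifs searched were matched in it, so it holds no capitals.
Jph2: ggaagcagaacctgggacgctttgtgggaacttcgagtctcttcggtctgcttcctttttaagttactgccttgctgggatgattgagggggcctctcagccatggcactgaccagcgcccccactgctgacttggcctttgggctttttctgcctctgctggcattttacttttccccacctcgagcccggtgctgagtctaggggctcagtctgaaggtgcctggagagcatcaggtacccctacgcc

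Slc8a1 (ENSRNOG00000008479) encodes the sodium-calcium exchanger of the surface membrane, which carries calcium out of the cell. It had 6386 CPM in WT against 7000.0 CPM (BMD) and 6855 CPM (DMD). WT was the lowest, with log2 ratios of 0.13 for BMD (0.11 to 0.15) and 0.10 for DMD (0.08 to 0.12).

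Dhrs7c (ENSRNOG00000026548), a dehydrogenase/reductase family member of the sarcoplasmic reticulum in striated muscle, had 94.1 CPM in WT against 23.7 CPM (BMD) and 25.1 CPM (DMD), from 597, 158 and 97 UMIs. WT stood far above both mutant libraries, which did not differ beyond counting error. The log2 ratio of BMD to WT was -1.99 (-2.25 to -1.74) and that of DMD -1.91 (-2.23 to -1.60). Dhrs7c was number 19 from the lowest ratio of 10134 genes in BMD and number 22 in DMD. Its level in near-empty barcodes of at most 50 UMIs was 34.9 CPM in WT against 12.6 CPM (BMD) and 8.46 CPM (DMD), from 55, 8 and 6 UMIs. WT was the highest there for Ryr2, Trdn, Atp2a2 and Hrc as well. In the cardiomyocyte-like nuclei WT also had the highest value for Ryr2 and Atp2a2, but the lowest for Trdn and Hrc. Over 14 alternative settings in these nuclei, among them subtraction of free RNA, the log2 ratio of Dhrs7c was -2.03 to -1.93 in BMD and -2.05 to -1.88 in DMD. Beyond this, the part of free RNA in the Dhrs7c result was not tested.

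Set directly against BMD, DMD had 0 of 10 genes at least 1.5-fold higher, where 7.48% of all genes were, and 0 of 10 at least 1.5-fold lower, against 6.09%. The log2 ratio of DMD over BMD was 0.22 for Trdn (0.18 to 0.25), 0.18 for Casq2 (0.14 to 0.23) and 0.17 for Jph2 (0.10 to 0.24). These 3 genes were higher in DMD. Ryr2 had a ratio of -0.16 (-0.18 to -0.15), and Hrc, which rests on few UMIs, one of -0.33 (-0.56 to -0.10). Asph had a ratio of -0.12, Pln one of -0.08 and Slc8a1 one of -0.03, with intervals below 0. Counts varied between nuclei by more than counting error alone. With each nucleus thinned to 500 UMIs, the variance of Slc8a1 was 1.67 (BMD) and 1.42 (DMD) times its mean. The intervals leave this out, so a ratio as small as -0.03 is not read as a difference. For Atp2a2 the ratio was -0.01 (-0.04 to 0.02), and for Dhrs7c it was 0.08 (-0.30 to 0.46), a wide interval that leaves room for a difference in either direction.

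**Figure D2:**
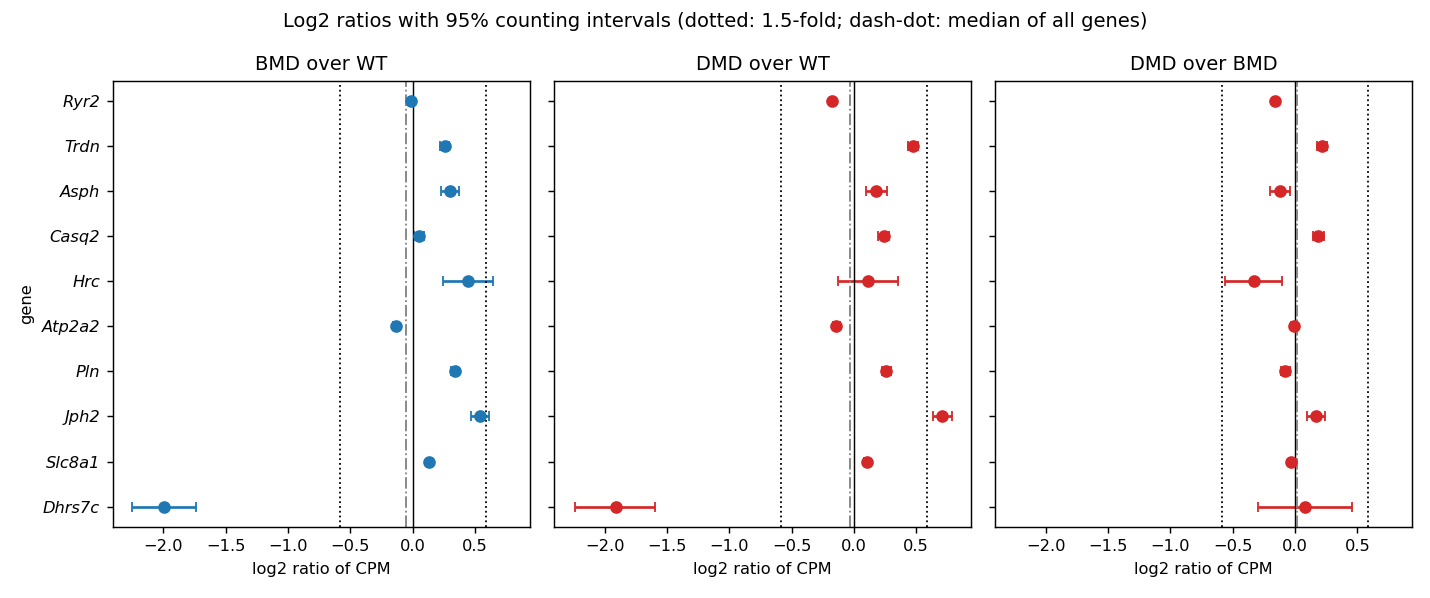
Log2 ratio of CPM of each gene (points) with its 95% counting interval (bars) for BMD over WT, DMD over WT and DMD over BMD, on a shared axis. Dotted lines mark 1.5-fold and the dash-dot line the median of all 10134 genes. Dhrs7c lies at -1.99 and -1.91 against WT and at 0.08 between the mutants, and Jph2 in DMD is the only point beyond the upper dotted line.

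Ratios between 2 genes within a library do not depend on how the library was scaled. There were 0.478 UMIs of Pln for each UMI of Atp2a2 in WT (0.469 to 0.488), 0.661 for BMD (0.649 to 0.673) and 0.630 for DMD (0.615 to 0.646). Both mutant libraries thus had more transcripts of the inhibitor for each one of the pump. The exchanger against the pump, Slc8a1 to Atp2a2, gave 1.35 in WT (1.33 to 1.37), 1.62 for BMD (1.59 to 1.64) and 1.59 for DMD (1.56 to 1.62). Trdn to Ryr2 gave 0.115 in WT against 0.138 (BMD) and 0.180 (DMD), and Casq2 to Ryr2 gave 0.0931, 0.0978 and 0.124. The first of these 2 ratios was lowest in WT and highest in DMD, and the second was close in WT and BMD and highest in DMD. The intervals of WT and each mutant did not overlap in any of the 4 ratios. Casq2 to Ryr2 in BMD came near (0.0958 to 0.0998, against 0.0912 to 0.0951 in WT). Each gene in these ratios had 6649 to 103243 UMIs per library, so the intervals are narrow. The genes were chosen with earlier results of these data known, and the share of other gene pairs that would be apart was not computed. The 4 ratios are therefore not read as setting these genes apart from others. With free RNA subtracted, or with each nucleus thinned to 500 UMIs, 3 of the 4 intervals were apart from WT in BMD and 4 in DMD. Within the finer clusters, an alternative chosen after seeing the data, 1 ratio was no longer apart. In the cluster with most of the mutant nuclei, Slc8a1 to Atp2a2 was highest in WT, at 1.72 (1.66 to 1.79) against 1.67 (BMD) and 1.66 (DMD), with overlapping intervals. In the cluster with most of the WT nuclei it was 1.29 in WT against 1.37 (BMD) and 1.39 (DMD). Pln to Atp2a2 stayed lowest in WT in both, at 0.602 against 0.674 and 0.665 in the first and 0.459 against 0.604 and 0.534 in the second. UMIs per gene depend on its length and priming sites, so the size of such a ratio is not a molar ratio, and only its difference between libraries is read.

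**Figure D3:**
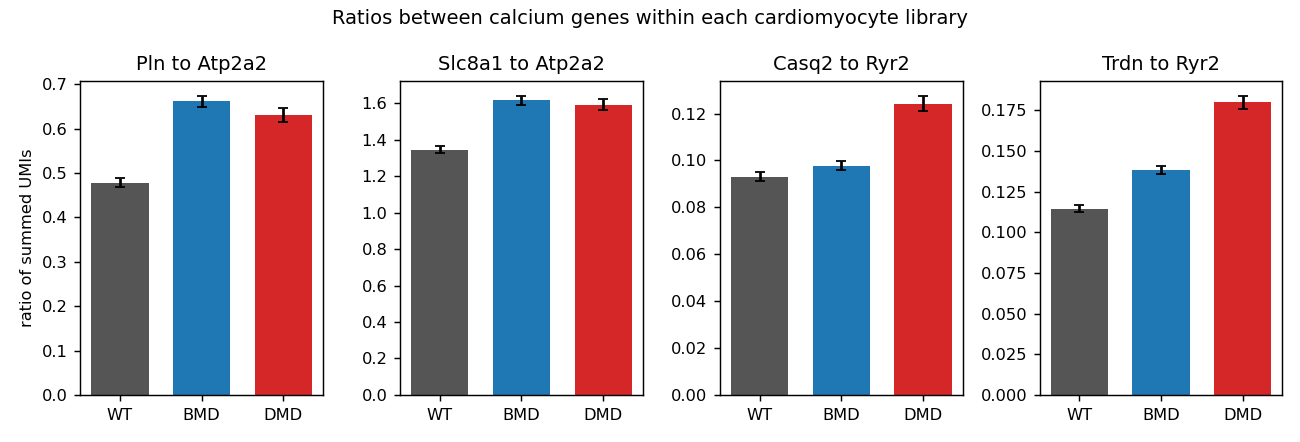
Ratio of summed UMIs of 2 genes within the cardiomyocyte-like nuclei of each library, on linear axes from 0, with exact 95% conditional binomial intervals. Over all these nuclei Pln to Atp2a2 and Slc8a1 to Atp2a2 are lowest in WT and close in BMD and DMD, although Slc8a1 to Atp2a2 was highest in WT within the cluster with most of the mutant nuclei, and Trdn to Ryr2 stands at 0.115 in WT against 0.138 (BMD) and 0.180 (DMD).

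As counted here, the nuclei of the mutants were deeper than those of WT. WT was read from a file of all 3 libraries that holds only 76.1% of the BMD UMIs and 92.9% of those of DMD. The mutants were read from their own files, so part of the difference in depth may come from the files. Shares of nuclei with at least 1 UMI were therefore compared after each nucleus was thinned to 500 UMIs, which kept every cardiomyocyte-like nucleus. Jph2 was then seen in 18.2% of nuclei in WT (16.6 to 20.0, exact Clopper-Pearson), 23.9% in BMD (21.8 to 26.1) and, for DMD, 26.0% (23.4 to 28.8). Unthinned, these shares were 62.1%, 79.7% and 77.9%. In endothelial-like nuclei, which should lack the gene, the thinned share was 0.469% in WT against 1.14% (BMD) and 1.29% (DMD), at unthinned median depths of 826, 1110 and 981 UMIs.

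Dhrs7c was seen in 4.93% of thinned nuclei in WT (4.03 to 5.96), 1.24% in BMD (0.748 to 1.93) and, for DMD, 1.22% (0.652 to 2.08), and in 22.9%, 8.55% and 8.08% of unthinned ones. The background share in thinned endothelial-like nuclei was 0.176% in WT and 0.0953% in DMD, and in BMD 0 of 1582 nuclei. The shares in cardiomyocyte-like nuclei were above it in all 3 libraries. Hrc was seen in 2.81%, 3.65% and 2.91% of thinned cardiomyocyte-like nuclei, with overlapping intervals, beside 0.253% to 0.572% of thinned endothelial-like ones.

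Atp2a2 was seen in 88.2% of thinned nuclei in WT (86.7 to 89.6), 83.2% in BMD (81.3 to 85.1) and, for DMD, 84.6% (82.3 to 86.7). Trdn was seen in 56.8%, 63.4% and 65.9%, with both mutant intervals above that of WT. Pln was seen in 66.0% in WT against 71.2% (BMD) and 70.8% (DMD), and the interval was apart from WT in BMD only. For Casq2 it was apart in DMD only, at 56.2% (53.2 to 59.2) against 48.8% in WT (46.6 to 51.0). Asph, at 20.5% to 23.0%, Slc8a1, at 92.2% to 93.8%, and Ryr2, at 98.1% to 98.9%, had overlapping intervals. Some of these calls depended on the depth of thinning. At 1000 UMIs, which kept 1904 (WT), 1490 (BMD) and 994 (DMD) nuclei, Atp2a2 overlapped with WT in both mutants, and so did Casq2 in DMD, at 76.9% (74.1 to 79.5) against 74.1% in WT (72.1 to 76.1). Asph was then apart, at 33.5% in WT (31.3 to 35.6) against 39.8% (37.3 to 42.3) for BMD and 38.7% (35.7 to 41.8) for DMD. In thinned endothelial-like nuclei Atp2a2 was seen in 14.9% to 18.1%, Asph in 8.67% to 11.1%, and Ryr2 and Slc8a1 in 20.2% to 33.6%. Trdn was seen there in 3.57% to 5.06%, Pln in 5.57% to 8.22% and Casq2 in 1.64% to 3.60%.

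The comparison was repeated within subsets of the cardiomyocyte-like nuclei. Within nuclei under 2000 UMIs, 2000 to 5000 UMIs and over 5000 UMIs, the log2 ratio of Jph2 over WT ranged from 0.49 to 0.60 in BMD and from 0.52 to 0.75 in DMD. That of Dhrs7c ranged from -2.02 to -1.47 in BMD and from -1.86 to -1.77 in DMD. Pln had 0.32 to 0.43 in BMD, but in DMD it was -0.01 in nuclei under 2000 UMIs (-0.14 to 0.11), against 0.28 and 0.30 in the deeper ranges. Slc8a1 likewise was 0.00143 in BMD and -0.05 in DMD under 2000 UMIs, and 0.16 in both over 5000 UMIs.

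Nuclei were also divided by whether 1 UMI of the natriuretic peptide genes Nppa or Nppb, markers of cardiac load, was seen after thinning. Such nuclei numbered 357 (WT), 686 (BMD) and 492 (DMD). In these, Jph2 had 389 CPM in WT against 565 CPM (BMD) and 672 CPM (DMD), and in the others 413, 620.0 and 665 CPM. Dhrs7c had 62.5, 17.5 and 24.3 CPM in nuclei with a natriuretic peptide UMI and 102, 29.0 and 25.7 CPM in those without. Within either kind of nucleus, WT was the lowest for Jph2 and the highest for Dhrs7c.

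At a finer Leiden resolution of 1.0 the cardiomyocyte-like nuclei fell into 2 main clusters, and different ones held most WT and most mutant nuclei. Cluster 1 held 1768 WT, 341 BMD and 334 DMD nuclei, and cluster 2 held 256, 1184 and 718. Neither the 10 genes nor the wider calcium list took part in forming them. Dhrs7c had 103 CPM in WT against 45.5 CPM (BMD) and 35.7 CPM (DMD) in cluster 1, and 48.8, 20.1 and 22.0 CPM in cluster 2. Its log2 ratios within clusters were therefore nearer 0 than over all nuclei, at -1.18 and -1.28 in BMD and -1.52 and -1.15 in DMD, with all 4 intervals below 0. Jph2 had ratios of 0.61 and 0.59 in BMD and of 0.71 and 0.77 in DMD, and Trdn of 0.30 and 0.45 in BMD and of 0.52 and 0.65 in DMD.

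Atp2a2 did not keep its direction within these clusters. It had 4920 CPM in WT against 4875 CPM (BMD) and 4854 CPM (DMD) in cluster 1, where both intervals of the ratio included 0. In cluster 2 it had 3858, 4237 and 4153 CPM, with log2 ratios over WT of 0.14 for BMD (0.09 to 0.18) and 0.11 for DMD (0.06 to 0.16). Ryr2 had log2 ratios of -0.005 in BMD and -0.25 in DMD in cluster 1, and of 0.12 and -0.02 in cluster 2. The intervals of Ryr2 included 0 for BMD in cluster 1 (-0.03 to 0.02) and for DMD in cluster 2 (-0.05 to 0.006). The lower level of Atp2a2 over all mutant nuclei went with their larger share in cluster 2, where WT nuclei also had less of it. The part of that share in the Atp2a2 result was not tested, and it cannot be told apart from genotype. In nuclei with and without a UMI of Nppa or Nppb, Atp2a2 had log2 ratios of -0.10 and -0.11 in BMD. In DMD they were -0.09 and -0.14. Pln was above WT in both clusters, at 0.38 and 0.30 in BMD and 0.20 and 0.25 in DMD.

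**Figure D4:**
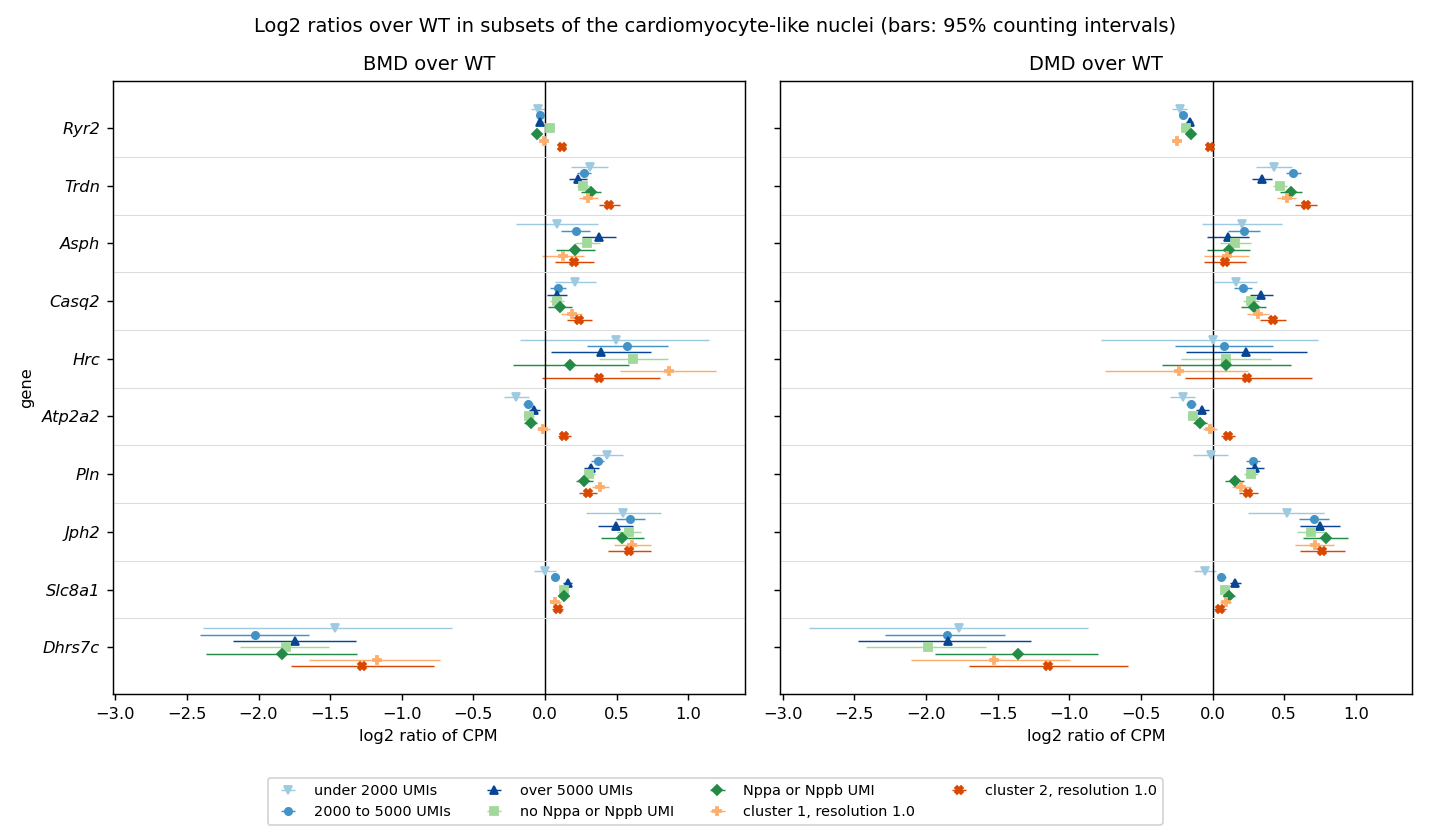
Log2 ratio of CPM over WT for each gene within subsets of the cardiomyocyte-like nuclei: 3 ranges of UMIs per nucleus, nuclei with and without a UMI of Nppa or Nppb, and both clusters at resolution 1.0. Bars are 95% counting intervals. Jph2 and Trdn lie above 0 and Dhrs7c below 0 in every subset of both panels, while Atp2a2 lies below 0 in the depth ranges and above 0 in cluster 2.

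In the other cell types, part of each level may be carried-over cardiomyocyte RNA. Free RNA and doublets were not separated as its sources, and the part of each was not tested. The level that such RNA would give was computed from the share of the 11 cardiomyocyte markers in each cell type, which was 2.12% to 3.48% of the cardiomyocyte level in fibroblast-like nuclei and 7.85% to 11.2% in endothelial-like nuclei. In monocyte-like nuclei it was 40.3% to 73.0%, too much to read a level of their own. The carried-over level assumes that this RNA has the make-up of the cardiomyocyte-like nuclei. In endothelial-like nuclei Ryr2 lay below it, at 0.372 to 0.435 times, as did Casq2 (0.235 to 0.433) and Trdn (0.278 to 0.548). The multiples below are therefore approximate. In fibroblast-like nuclei Ryr2 was at 0.743 to 1.01 times the carried-over level, Pln at 0.897 to 1.10, Casq2 at 0.557 to 0.734 and Jph2 at 0.694 to 0.802. These levels were at or below the carried-over one, apart from Pln and Ryr2 in WT, which were within counting error of it. Trdn was above it in WT, at 1.22 times (1.07 to 1.39), and below it in BMD and DMD, at 0.672 and 0.580 times.

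Asph was the most widely expressed of the 10 genes. In fibroblast-like nuclei it had 363 CPM in WT against 260 CPM (BMD) and 265 CPM (DMD), 13.7 to 38.7 times the carried-over level. In these nuclei it was lower in the mutants, with log2 ratios over WT of -0.48 for BMD (-0.61 to -0.36) and -0.45 for DMD (-0.57 to -0.34). Over all cardiomyocyte-like nuclei it was higher in both. Within clusters 1 and 2 of those nuclei its log2 ratios were 0.13 and 0.20 in BMD and 0.10 and 0.08 in DMD. All but the 0.20 had intervals that included 0. In macrophage-like nuclei its log2 ratio was -0.78 in BMD and -0.63 in DMD, and in endothelial-like nuclei -0.29 and -0.39, all with intervals below 0. Lymphatic-like nuclei were also below 0, at -1.09 and -0.95. Pericyte-like or smooth muscle-like nuclei, with Asph at 5.34 to 12.7 times the carried-over level, showed no such decrease. Their ratios of 0.02 (BMD) and 0.14 (DMD) had intervals that included 0. Among T or B cell-like nuclei the interval included 0 for BMD, at -0.05, but lay below 0 for DMD, at -0.39. No test of the difference between cell types could be made with 1 library per genotype.

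Slc8a1 and Atp2a2 were also above the carried-over level outside the cardiomyocytes. Slc8a1 was at 4.57 to 6.02 times that level in fibroblast-like nuclei, 3.53 to 4.06 times in pericyte-like or smooth muscle-like nuclei and 2.17 to 2.48 times in macrophage-like nuclei. In pericyte-like or smooth muscle-like nuclei it had 1019 CPM in WT against 1900.2 CPM (BMD) and 1493 CPM (DMD), with log2 ratios of 0.90 for BMD (0.76 to 1.04) and 0.55 for DMD (0.41 to 0.70). The cardiomyocyte markers in those nuclei were at 860 CPM in WT against 1860.4 CPM (BMD) and 1333 CPM (DMD), so carried-over RNA differed in the same order. With the carried-over level subtracted, Slc8a1 had 768 CPM in WT (694 to 846), 1362 for BMD (1246 to 1483) and 1120 for DMD (1024 to 1221). That level is approximate, and the part of such RNA was not tested further. Unsubtracted, the log2 ratios of Slc8a1 were 0.45 (BMD) and 0.41 (DMD) in fibroblast-like nuclei and 0.58 and 0.19 in macrophage-like ones. They were -0.18 and -0.37 in lymphatic-like nuclei and 0.34 and -0.17 in T or B cell-like ones. Atp2a2 was at 3.39 to 4.34 times the carried-over level in fibroblast-like nuclei.

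Jph2 was above the carried-over level in all 3 libraries in pericyte-like or smooth muscle-like nuclei alone, of the 8 other cell types. It had 94.1 CPM in WT against 127 CPM (BMD) and 162 CPM (DMD) there, from 65, 67 and 97 UMIs. WT had the lowest value and DMD the highest, with log2 ratios of 0.43 for BMD (-0.08 to 0.95) and 0.78 for DMD (0.31 to 1.26). The carried-over level was 16.04 CPM in WT against 45.7 (BMD) and 36.3 (DMD). With it subtracted, Jph2 had 78.1 CPM in WT (56.6 to 104), 81.2 for BMD (52.7 to 115) and 125.3 for DMD (94.7 to 161), with overlapping intervals. Dhrs7c had at most 14 UMIs and Hrc at most 23 in any library of these cell types.

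**Figure D5:**
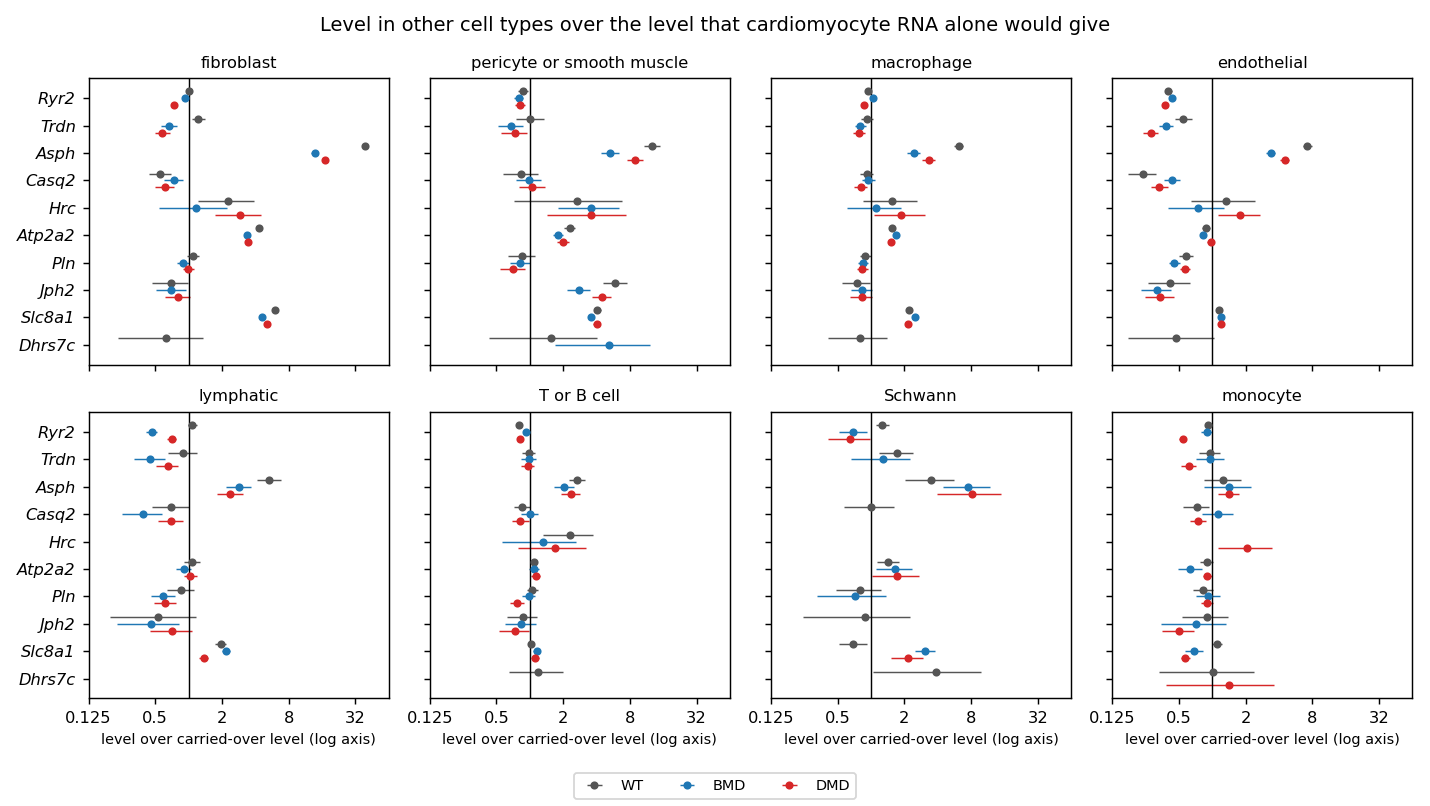
Level of each gene in 8 other cell types, divided by the level that carried-over cardiomyocyte RNA alone would give (log axis, 1 marked by a line), for each library with 95% Poisson intervals. Points with 3 UMIs or fewer are left out. Asph lies above 1 in fibroblast-like nuclei at 13.7 to 38.7, and Jph2 in pericyte-like or smooth muscle-like nuclei at 2.78 to 5.87.

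Among the other genes of the calcium cycle, 57 were listed, 53 were found in the files and 40 reached 50 UMIs over the cardiomyocyte-like nuclei. Of these 40, 1 was at least 1.5-fold higher and 4 were lower in BMD, and 4 were higher and 2 lower in DMD. These are 2.5%, 10%, 10% and 5% of the 40, near or below the shares over all genes of 9.17%, 9.33%, 11.1% and 10.7%. Their median log2 ratio was 0.01 in BMD and 0.03 in DMD. The 6 genes with the highest ratio in both comparisons included Sypl2, Jph1, Stim2, Itpr1 and Ppp1ca. Sypl2, a synaptophysin-like membrane protein of the muscle triad, had 4.26 CPM in WT against 12.9 CPM (BMD) and 14.2 CPM (DMD), from 27, 86 and 55 UMIs, and its log2 ratio was 1.60 for BMD (0.96 to 2.28) and 1.74 for DMD (1.05 to 2.46).

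Jph1, another junctophilin found in muscle, was also lowest in WT. It had 168 CPM in WT against 231 CPM (BMD) and 244 CPM (DMD), with log2 ratios of 0.46 for BMD (0.35 to 0.57) and 0.54 for DMD (0.41 to 0.67). Itpr1, an inositol trisphosphate receptor, had log2 ratios of 0.35 and 0.26. Stim2, a sensor of store calcium, was past 1.5-fold in DMD only, at 0.41 in BMD and 0.70 in DMD. Casq1, the skeletal calsequestrin, had 0.23 (-0.30 to 0.77) and 0.76. Ppp1ca, a catalytic subunit of protein phosphatase 1, had 0.53 and 0.25 (-0.27 to 0.77). The intervals of Casq1 in BMD and Ppp1ca in DMD thus included 0.

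The 6 genes with the lowest ratio in both comparisons were Slc8b1, Cacna1c, Akap7, Camk2d, Ppp1r3a and Cacna2d1. Cacna1c, the pore subunit of the L-type calcium channel that triggers release, had 2004 CPM in WT against 1483 CPM (BMD) and 1468 CPM (DMD). Its log2 ratio was -0.43 for BMD (-0.47 to -0.40) and -0.45 for DMD (-0.49 to -0.40), and its accessory subunit Cacna2d1 had -0.18 and -0.21. Camk2d, the kinase that phosphorylates the release channel and phospholamban, had -0.29 and -0.34. Akap7, an anchoring protein of the phospholamban complex, had -0.64 in BMD and -0.34 in DMD, and Ppp1r3a, a phosphatase subunit found at the reticulum, -0.26 and -0.54. Slc8b1, the mitochondrial sodium-calcium exchanger, had -0.46 (-1.01 to 0.08) and -0.98 on 141 UMIs in all, so its interval in BMD included 0. Stim1, S100a1 and Itpr3 were past 1.5-fold lower in BMD, at -0.77, -0.77 and -0.73, and Bin1 in DMD, at -0.67. Among these values, the intervals of Itpr3 and Bin1 included 0. The other mutant did not share these decreases beyond counting error. Stim1 was at -0.18, S100a1 at 0.33 and Itpr3 at 0.57 in DMD, and Bin1 at 0.55 in BMD, all with intervals that included 0.

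The genes whose levels were most like those of each member were sought over 27 sums, of 9 cell types in 3 libraries, by Pearson's r of log2(CPM + 5). For Ryr2 they were Rbm20, Ldb3 and Txlnb (r of 0.980 to 0.985), for Pln Mybpc3, Rbm20 and Myoz2 (0.983 to 0.988), and for Trdn Ldb3, Nrap and Smyd1 (0.981 to 0.983). For Casq2 they included Actn2 and Wnk2 (0.983 and 0.987), and for Atp2a2 they were Pde4dip, Ppip5k2 and Mypn (0.971 to 0.976). Jph2 was most like Akap6, Cacnb2 and Nexn (0.944 to 0.964), and Slc8a1 like Parm1, Kcnk3 and Cux2 (0.927 to 0.951). Dhrs7c was most like Kcnh2, Grid1 and Bche (0.902 to 0.921), Hrc like Asb15, Lsamp and Npc1l1 (0.875 to 0.914), and Asph, expressed in several cell types, like Cadps, Tbx5 and Trim7 (0.815 to 0.828). The sums share libraries, depth and carried-over cardiomyocyte RNA, so these values describe a shared cell type pattern.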

How the data were processed

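Heart apex nuclei of 1 WT, 1 BMD and 1 DMD library were processed with a 10x Genomics 3′ v3.1 kit per the labels and the methods, although the study's text also names a 5′ technology. Per the labels, the authors used Cell Ranger with build rn6, and they deposited raw UMI counts per gene for all barcodes. The file headers name Cell Ranger 6.0.1 for the aggregate that holds WT and version 4 for BMD and DMD. Counting of introns is not given in the sources used here, and unequal counting of WT and mutant reads cannot be told apart from genotype. WT was read from its barcodes in the aggregate, which keeps 76.1% of the BMD UMIs and 92.9% of those of DMD, and the mutant libraries from their own files.

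Barcodes were ranked by UMIs, and the study's number per library was kept as nuclei from the top. The shallowest held 513 UMIs, and the barcodes with at least 500 numbered 10069 (WT), 6898 (BMD) and 8212 (DMD). Nuclei were clustered together with scanpy 1.11.5 and igraph 0.11.9 (2000 variable genes, 30 components, 15 neighbours, Leiden resolution 0.5), without mitochondrial and sex genes, 8 cardiomyocyte genes the study names, and the calcium genes described here. A cluster was named from listed markers when at least 3 were at least 2 times their level elsewhere with at least 10 UMIs. A cluster of 493 nuclei of high depth, one of 197 led by mitochondrial genes and one of 608 stayed unnamed. No doublet filter was used; Scrublet, tried as an alternative, marked 8.01% (WT), 5.10% (BMD) and 10.4% (DMD) as doublets.

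UMIs were summed per library and cell type and scaled to CPM. Intervals (scipy 1.17.1) were exact Poisson for levels, exact conditional binomial for ratios and Clopper-Pearson for shares, at 95%, and cover counting error only. No test was possible with 1 library per genotype, nuclei were not treated as replicates, and genes were counted past 1.5-fold. The functions were tested on data simulated with counting error only. Free RNA, read from barcodes with at most 50 UMIs, was estimated at 2.12% (WT), 3.44% (BMD) and 3.39% (DMD) of cardiomyocyte-like UMIs. The genes and gene lists were chosen with earlier results of these data known. Of the wider list, each gene was ranked by whichever of its log2 ratios over WT was nearer 0, and those named are the 6 at each end and all past 1.5-fold, apart from a result that is not reported here. Promoters are from RefSeq, GRCr8, a build other than that of the counts, and were matched by symbol. TMM factors came from edgeR 4.0.16.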

Additional observations from a re-analysis of the deposited data

How the results depend on the processing

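The median log2 ratio and the counts past 1.5-fold were recomputed under the alternatives. Of the values for single genes, 255 of 300 moved by less than their counting interval and 45 by more. The genes past 1.5-fold, Dhrs7c in both mutants and Jph2 in DMD, kept their sign. In cardiomyocyte-like nuclei only Ryr2 in BMD changed sign, keeping it in 11 of 14 alternatives. When nuclei of every type were summed, Ryr2 and Atp2a2 in BMD and Pln, Casq2, Asph, Slc8a1 and Hrc in DMD changed sign. In BMD, the count of genes at least 1.5-fold higher went from 0 to 1 with TMM scaling, to 2 when nuclei of every type were summed, and to 3 at the lower fold threshold tried. In DMD it went from 1 to 0 over all nuclei and to 2 at the lower fold threshold. The shares of all genes under these settings are not given here. These counts are therefore not to be set against the shares at 1.5-fold given above. The median ratio in BMD, 0.19, was 0.24 with TMM scaling, 0.22 with median-of-ratios scaling, 0.16 as the mean over nuclei, 0.16 with each nucleus thinned to 500 UMIs and 0.28 over all nuclei. In DMD, 0.15, it was -0.11 over all nuclei, since the share of cardiomyocytes in the library then enters. Jph2 in BMD lies near the threshold, and its call depends on the scaling. Unthinned, with a median of 3769 UMIs per nucleus in BMD against 2760.5 in WT, 6 genes had a higher share of nuclei with a UMI in BMD. When thinned to 500 UMIs, 3 did. At 1000 UMIs, 1 gene, not 2, had a lower share in BMD and 1 in DMD, with Atp2a2 lost. Among higher shares, Casq2 was lost in DMD and Asph gained in both mutants. Within the finer clusters, chosen after seeing the data, 4 of 4 ratios between genes were higher in both mutants in one and 3 of 4 in the other. No share of other gene pairs was computed to set beside these ratios. Counting the unnamed deep cluster with the cardiomyocytes, an alternative chosen after seeing the data, left all counts as they were. No paired analysis was possible because there was 1 library per genotype, and for the same reason no replicate could be left out.

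The depth limits Hrc and Dhrs7c most, with 97 to 597 UMIs per library. Intervals leave out the spread between nuclei and the spread between animals, and these data cannot give the spread between animals.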
